A study of Homo sapiens with 9 samples.

Results

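The interleukin-1 and interleukin-6 cytokine families were examined in the melanoma cell line A375, of human origin and long established, across 2 doses of Salvianolic acid B (SalB), a polyphenol of the medicinal sage *Salvia miltiorrhiza*. The members were the 10 rows of the gene count table with the symbols *IL1A*, *IL1B*, *IL1RN*, *IL1R1*, *IL1RAP*, *IL6*, *IL11*, *LIF*, *IL6R* and *IL6ST*, and all 10 were found among 20463 annotated genes. They comprise 5 ligands, 1 secreted antagonist and 4 receptor chains. The libraries were untreated control (0 µM), SalB at 100 µM and SalB at 200 µM, 3 of each, and treatment lasted 48 h. All 9 grew in DMEM with fetal bovine serum, penicillin and streptomycin and carry the same batch label, and control cells are given as untreated, with no vehicle named. The labels call the 3 libraries of a group biological replicates but do not name separate cultures or days, so p-values measure the spread between these libraries.

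Interleukin-1 alpha and interleukin-1 beta are inflammatory ligands that bind the receptor chain IL1R1, which then recruits the accessory chain IL1RAP and signals through MYD88 and IRAK kinases to NF-kB. The antagonist encoded by *IL1RN* occupies IL1R1 without signalling. Interleukin-6, interleukin-11 and LIF all signal through the shared chain gp130, encoded by *IL6ST*, each with a partner (IL6R, IL11RA or LIFR), and activate JAK kinases and STAT3. NF-kB in turn activates transcription of *IL1A*, *IL1B* and *IL6*, and melanoma cells are a known source of cytokines of both families.

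The promoter windows of 4 ligand genes are shown because these genes went down together at 100 µM and parted at 200 µM. Each is the 250 bases before a RefSeq transcription start (GRCh38.p14), 5′ to 3′ on the strand of the gene, and for *IL1A* the window of the more downstream of 2 RefSeq starts is given. Capitals mark matches to any of 4 motifs searched on both strands, which were the NF-kB (kappaB) consensus, the AP-1 motif TGANTCA, the TATA motif TATAAA and the STAT motif TTCNNNGAA.
IL1A, chr2:112784401-112784650, minus strand: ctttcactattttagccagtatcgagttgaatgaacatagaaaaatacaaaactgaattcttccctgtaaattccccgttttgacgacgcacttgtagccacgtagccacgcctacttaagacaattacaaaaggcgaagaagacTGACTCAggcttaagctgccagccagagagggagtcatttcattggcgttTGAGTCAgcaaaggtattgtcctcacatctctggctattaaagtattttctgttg
IL1B, chr2:112836780-112837029, minus strand: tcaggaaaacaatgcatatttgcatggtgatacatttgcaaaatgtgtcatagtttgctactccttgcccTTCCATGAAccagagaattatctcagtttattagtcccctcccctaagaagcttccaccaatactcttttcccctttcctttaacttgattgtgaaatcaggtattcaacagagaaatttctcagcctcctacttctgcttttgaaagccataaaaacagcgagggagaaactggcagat
IL6, chr7:22726950-22727199, plus strand: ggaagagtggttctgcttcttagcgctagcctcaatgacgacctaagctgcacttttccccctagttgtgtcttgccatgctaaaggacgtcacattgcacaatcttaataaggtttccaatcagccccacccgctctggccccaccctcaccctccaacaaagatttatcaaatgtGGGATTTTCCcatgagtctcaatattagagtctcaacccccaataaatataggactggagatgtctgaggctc
IL11, chr19:55370464-55370713, minus strand: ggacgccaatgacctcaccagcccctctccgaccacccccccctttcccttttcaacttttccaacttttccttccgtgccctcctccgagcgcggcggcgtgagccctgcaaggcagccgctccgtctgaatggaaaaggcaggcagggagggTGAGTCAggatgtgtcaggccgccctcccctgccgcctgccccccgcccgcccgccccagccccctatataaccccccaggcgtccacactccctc
The *IL6* window held 1 kappaB match, GGGATTTTCC, from -73 to -64 relative to the start. The *IL1A* window held 2 AP-1 matches, at -105 to -99 and at -55 to -49, the *IL11* window held 1 at -96 to -90, and the *IL1B* window held 1 STAT match at -180 to -172. Matches of different motifs did not overlap in these windows. Of 35116 promoter windows of the same length in RefSeq, 5.21% held a kappaB match, 6.57% an AP-1 match, 10.7% a TATA match and 6.57% a STAT match. The window of the more upstream *IL1A* start, not shown, overlaps the one given and held 1 TATA match at -239 to -234. Its 1 AP-1 match, at -12 to -6, is the same site as the match at -105 to -99 in the window given. A promoter window was found for 9 of the 10 members. None was found for *LIF*, which also fell at 100 µM.

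Library totals lay between 27348621 and 30629685 counts. The third library at 200 µM stood apart from its 2 fellow replicates. Its counts differed from theirs with a chi-square per degree of freedom of 109 and 148, against 7.22 to 23.0 for the other pairs of replicates, and mitochondrially encoded mRNAs took 4.69% of its counts, against 1.85% and 1.81% in its group. The members' results at 200 µM are therefore given with and without it. Of 13 melanoma and melanocyte markers, 8 were at 1 CPM or more in every library, among them *SOX10*, while the pigment gene *TYR* averaged 0.0570 CPM in control and was at 0 in both treated groups. Among 12 leukocyte and macrophage markers, *CD3E*, *MS4A1*, *TYROBP* and *CD163* were at 0 in every library, and *PTPRC*, the pan-leukocyte gene, averaged at most 0.0455 CPM in a group. The summed level of that list was 21.9 to 25.6 CPM in control, 18.4 to 20.6 CPM at 100 µM and 59.8 to 85.4 CPM at 200 µM, of which *CD68* gave 19.2, 15.5 and 65.5 CPM on average. Summed levels in control, at 100 µM and at 200 µM were 47.5 to 51.2, 74.1 to 77.6 and 41.5 to 45.4 CPM for fibroblast markers, 11.4 to 13, 4.37 to 4.64 and 11.1 to 12.7 CPM for endothelial markers, and 279 to 290, 342 to 373 and 339 to 447 CPM for epithelial markers, of which *KRT5* and *KRT1* were at 0 throughout. The part of these markers in the results was not tested.

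Expression is given in CPM, the count relative to a library size scaled by the TMM method, and each comparison used the edgeR quasi-likelihood test over 13968 genes with a call at an adjusted p under 0.05. In bulk libraries, fewer cells making a transcript and less of it per cell cannot be told apart. Both interleukin-1 ligands fell at both doses, and the interleukin-6 family ligands fell at 100 µM and were higher at 200 µM than at 100 µM. At 100 µM, 6 members were lower than in control and 1 was higher, where 37.1% of all genes tested were called (18.2% lower and 18.9% higher). At 200 µM, 2 members were lower than in control and 2 were higher, where 37.3% of all genes were called (17.5% lower and 19.8% higher). Between the doses, 6 members were higher at 200 µM than at 100 µM and 0 lower, where 44.4% of all genes were called (22.4% higher and 21.9% lower). With background shares of this size, the number of calls among 9 tested members says little by itself, and the sizes of the changes follow gene by gene. Without the third library at 200 µM these counts were 7 lower and 1 higher, 3 lower and 2 higher, and 5 higher and 0 lower. The median log2 fold change of the 9 tested members was -1.85 at 100 µM, 0.00 at 200 µM and 0.82 between the doses, against -0.01, 0.00 and -0.01 over all genes. *IL1RN* was not testable, and *IL6* passed the filter on low counts only with the 200 µM libraries present. These counts therefore cover members that passed and not the whole set.

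**Figure D1:**
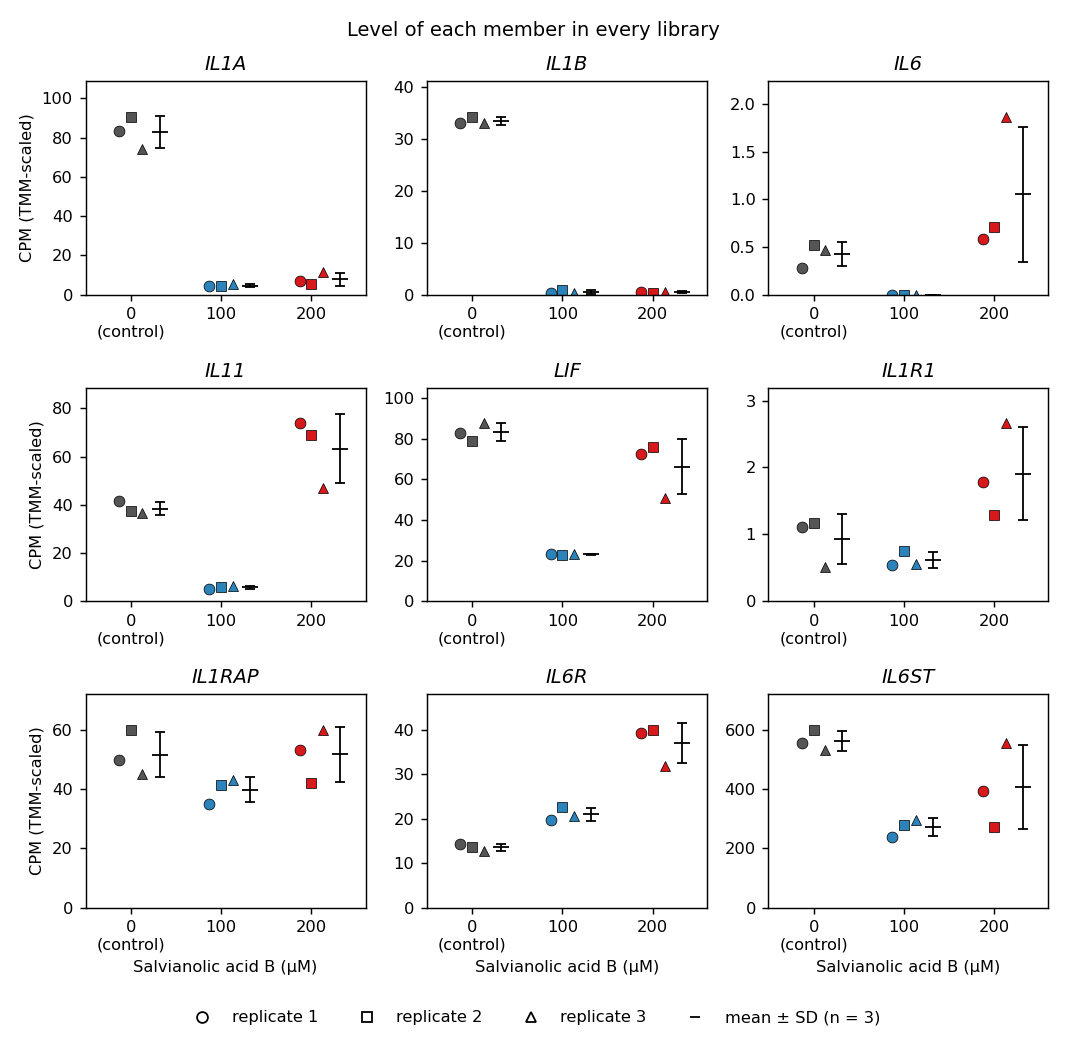
Level of 9 members in every library, in CPM on linear axes that start at 0, against the SalB dose in µM, with 1 symbol per library (circle, square and triangle for replicates 1, 2 and 3) and the mean ± SD of n = 3 beside each group. *IL1A* and *IL1B* are low at both doses, *IL11* and *LIF* are low at 100 µM only, and *IL6R* is higher at each dose than in control.

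*IL1B* encodes interleukin-1 beta, a ligand that is made as a precursor and cleaved by caspase-1. It had 33.0, 34.3 and 33.0 CPM in the control libraries, 0.321, 0.941 and 0.292 CPM at 100 µM, and 0.544, 0.356 and 0.556 CPM at 200 µM. All 6 treated libraries lay far below all 3 control libraries, and the ranges of the 2 doses overlapped. Behind these levels were 9 to 29 reads in each library at 100 µM and 10 to 15 at 200 µM, against 953 to 995 in control. *IL1B* was 64.1-fold lower at 100 µM than in control (log2 fold change -6.0 ± 0.36 SE, edgeR adjusted p = 8.5e-06) and 68.6-fold lower at 200 µM (-6.10 ± 0.36, adjusted p = 6.0e-06; -6.19 and adjusted p = 8.1e-06 with the third library at 200 µM left out). Between 200 µM and 100 µM no difference was called (-0.10, 95% interval -1.06 to 0.86, adjusted p = 0.87; -0.21 and adjusted p = 0.75 with the third library at 200 µM left out). The low counts leave room for a change of up to about that interval in either direction, and without the second library at 100 µM the difference was 0.63 (adjusted p = 0.20). Leaving out that library also moved the fall at 100 µM against control to -6.73 (adjusted p = 3.3e-06).

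*IL1A* encodes interleukin-1 alpha, a ligand that is active as a precursor and acts as an alarm signal when cells are damaged. Its level was 83.6, 90.7 and 74.2 CPM in control, 4.21, 4.28 and 5.35 CPM at 100 µM, and 6.71, 5.20 and 11.5 CPM at 200 µM. The treated libraries did not overlap with control, and the third library at 200 µM was the highest of the treated ones. The gene was 17.9-fold lower at 100 µM than in control (-4.17 ± 0.28, edgeR adjusted p = 1.4e-05) and 10.6-fold lower at 200 µM (-3.41 ± 0.27, adjusted p = 2.5e-05). With the third library at 200 µM left out, the fall was 13.8-fold (adjusted p = 2.9e-08). *IL1A* was called higher at 200 µM than at 100 µM (0.75 ± 0.26, adjusted p = 0.042), but not without the third library at 200 µM (0.36, adjusted p = 0.068). This call was lost in 8 of the 9 fits that left out 1 library, with adjusted p-values of up to 0.12, and kept without the second library at 200 µM (0.95, adjusted p = 0.0069).

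*IL1A* (chromosome 2, 112773915 to 112784590) and *IL1B* (chromosome 2, 112829751 to 112836903) are neighbours in the interleukin-1 cluster on the minus strand, and their exons overlap no other annotated gene (GENCODE v29, GRCh38). *IL1RN* (chromosome 2, 113107214 to 113134016), the antagonist gene of the same cluster, had 0 counts in all 9 libraries. A count of 0 in a group allows a level of up to 0.0343 CPM in control, 0.0323 CPM at 100 µM and 0.0371 CPM at 200 µM (3 counts over the group, for counting error only). No antagonist transcript was detectable at this depth at any dose.

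*IL1R1*, the signalling receptor of both ligands, was measured at 1.11, 1.17 and 0.506 CPM in control, 0.546, 0.746 and 0.551 CPM at 100 µM, and 1.78, 1.28 and 2.66 CPM at 200 µM. These levels rest on 15 to 67 reads per library, the control and 100 µM ranges overlapped, and the 200 µM libraries lay above all the others. No difference from control was called at 100 µM (-0.59, 95% interval -1.48 to 0.30, edgeR adjusted p = 0.27) or at 200 µM (1.03, 0.19 to 1.88, adjusted p = 0.057). *IL1R1* was 3.08-fold higher at 200 µM than at 100 µM (1.62 ± 0.39, adjusted p = 0.0082), and 2.46-fold higher without the third library at 200 µM (adjusted p = 0.015). Against control, the 200 µM difference was called without the second library at 200 µM (1.25, adjusted p = 0.031) and not without the third (0.73, adjusted p = 0.13).

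*IL1RAP*, the accessory chain that completes the receptor, was the more abundant of the pair, at 49.7, 60.1 and 45.1 CPM in control, 35.1, 41.3 and 43.2 CPM at 100 µM, and 53.2, 41.9 and 60.1 CPM at 200 µM. The 100 µM libraries were all below control, and the 200 µM libraries spanned both ranges. None of its 3 comparisons was called (edgeR adjusted p of 0.091, 0.99 and 0.080 at 100 µM, at 200 µM and between the doses). The 95% interval at 200 µM against control was -0.35 to 0.36 on the log2 scale, and with the third library at 200 µM left out the difference was -0.105 (adjusted p = 0.57). Between the doses the difference was 0.37 and was called without the second library at 200 µM (0.48, adjusted p = 0.020) and not without the third (0.24, adjusted p = 0.18). At 100 µM against control the difference was -0.37 (95% interval -0.73 to -0.02) and was called without the third library at 200 µM (-0.35, adjusted p = 0.045).

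*IL6* encodes interleukin-6, the founding ligand of its family and a driver of the acute-phase response. It was the rarest ligand in control and at 100 µM, with 8, 15 and 14 reads in control, 0, 0 and 0 reads at 100 µM, and 16, 20 and 47 reads at 200 µM. In CPM this was 0.277, 0.517 and 0.473 in control and 0.580, 0.712 and 1.87 at 200 µM. No read was found in any library at 100 µM, and every library at 200 µM lay above every control library. With 3 counts over the group as the floor, the gene was at least 13.1-fold lower at 100 µM than in control (37 reads in control, edgeR adjusted p = 0.0052) and at least 31.8-fold higher at 200 µM than at 100 µM (83 reads, adjusted p = 0.0010). The bound between the doses was 20.0-fold with the third library at 200 µM left out. *IL6* passed the filter on low counts only with the 200 µM libraries present. With control and 100 µM fitted alone it was not tested. The p-values given with the bounds therefore add no support to them. The 200 µM level was not called against control (1.30, 95% interval 0.02 to 2.58, adjusted p = 0.10), and leaving out the third library at 200 µM lowered the difference to 0.62 (adjusted p = 0.31), or 1.54-fold. The sources used here do not say whether counting used strand, and 20.7% of the exon bases of *IL6* (chromosome 7, 22725884 to 22732002) lie under an antisense transcript, *AC073072.1*, so part of these few reads may not be from *IL6*.

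*IL11* encodes interleukin-11, a ligand known for roles in bone, stroma and fibrosis. Its level was 41.5, 37.3 and 36.5 CPM in control, 5.11, 5.87 and 6.22 CPM at 100 µM, and 73.9, 69.1 and 47.0 CPM at 200 µM. The 3 groups did not overlap, and the third library at 200 µM was nearest to control. At 100 µM the gene was 6.70-fold lower than in control (-2.74 ± 0.18, edgeR adjusted p = 1.3e-05), whereas at 200 µM it was 1.65-fold higher (0.72 ± 0.16, adjusted p = 0.0076). Between the doses it was 11.0-fold higher at 200 µM (3.46 ± 0.18, adjusted p = 1.6e-06). With replicate 3 at 200 µM left out, the rise over control was 1.88-fold (adjusted p = 1.2e-05) and the log2 difference between the doses 3.63 (adjusted p = 1.5e-09). *IL11* lies on chromosome 19 (55364389 to 55370463, minus strand), and its exons overlap no other annotated gene.

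*LIF* encodes leukemia inhibitory factor, which sustains stem cells in culture and acts through LIFR and gp130. It was measured at 83, 78.7 and 87.6 CPM in control, 23.1, 22.6 and 23.3 CPM at 100 µM, and 72.4, 75.7 and 50.6 CPM at 200 µM. The 100 µM libraries lay well below the rest, and the 200 µM libraries were all below control. *LIF* was 3.61-fold lower at 100 µM than in control (-1.85 ± 0.14, edgeR adjusted p = 3.1e-05) and 2.88-fold higher at 200 µM than at 100 µM (1.53 ± 0.14, adjusted p = 4.0e-05). At 200 µM against control it was not called (-0.33, 95% interval -0.64 to -0.01, adjusted p = 0.095). Without the third library at 200 µM that difference was -0.15 (adjusted p = 0.073), and without the second it was -0.44 and called (adjusted p = 0.039). With the GC trend of each library removed it was also called, at -0.43 (edgeR adjusted p = 0.0014). The difference between the doses was 1.68 without the third library (adjusted p = 1.9e-08). Antisense transcripts lie under 4.41% and 2.32% of the exon bases of *LIF* (chromosome 22, 30240447 to 30246851).

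*IL6R*, the ligand-binding receptor of interleukin-6, differed from the ligands in direction at 100 µM, and at 200 µM was higher than in control like *IL11*. It had 14.2, 13.6 and 12.8 CPM in control, 19.7, 22.5 and 20.7 CPM at 100 µM, and 39.2, 40.0 and 31.8 CPM at 200 µM. The 3 groups were in the order of the dose with no overlap. *IL6R* was 1.55-fold higher at 100 µM than in control (0.63 ± 0.11, edgeR adjusted p = 0.0027), 2.73-fold higher at 200 µM (1.45 ± 0.11, adjusted p = 2.7e-05) and 1.77-fold higher at 200 µM than at 100 µM (0.82 ± 0.11, adjusted p = 3.9e-04). Its rise over control at 200 µM was 2.95-fold without the third library of that dose, and its log2 difference between the doses 0.91 (adjusted p = 7.8e-06). The gene lies on chromosome 1 (154405193 to 154469450), and no other annotated gene shares its exon bases.

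*IL6ST*, which encodes the shared signal transducer gp130, was the most abundant member. Its level was 556, 600 and 532 CPM in control, 238, 278 and 297 CPM at 100 µM, and 394, 272 and 554 CPM at 200 µM. The 100 µM libraries lay below control, and the 200 µM libraries spread from the 100 µM range to the control range. *IL6ST* was 2.08-fold lower at 100 µM than in control (-1.05 ± 0.22, edgeR adjusted p = 0.0051). After removal of the GC trend of each library it stood at -0.59 on the log2 scale (adjusted p = 6.8e-04). At 200 µM it was not called against control (-0.47, 95% interval -0.95 to 0.02, adjusted p = 0.12) or against 100 µM (0.59, 0.10 to 1.07, adjusted p = 0.052). Leaving out the third library at 200 µM, it was called lower than in control (-0.74, adjusted p = 0.0064), and without the second library at 200 µM it was called higher than at 100 µM (0.78, adjusted p = 0.0024), but not without the third (0.29, adjusted p = 0.16). With the GC trend removed, the 200 µM level was called against control (-0.26, edgeR adjusted p = 0.034) and against 100 µM (0.33, adjusted p = 0.010). DESeq2 also called the difference between the doses (0.58, adjusted p = 0.022), as did RLE scaling. An antisense transcript lies under 8.58% of the exon bases of *IL6ST* (chromosome 5, 55935095 to 55994993).

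**Figure D2:**
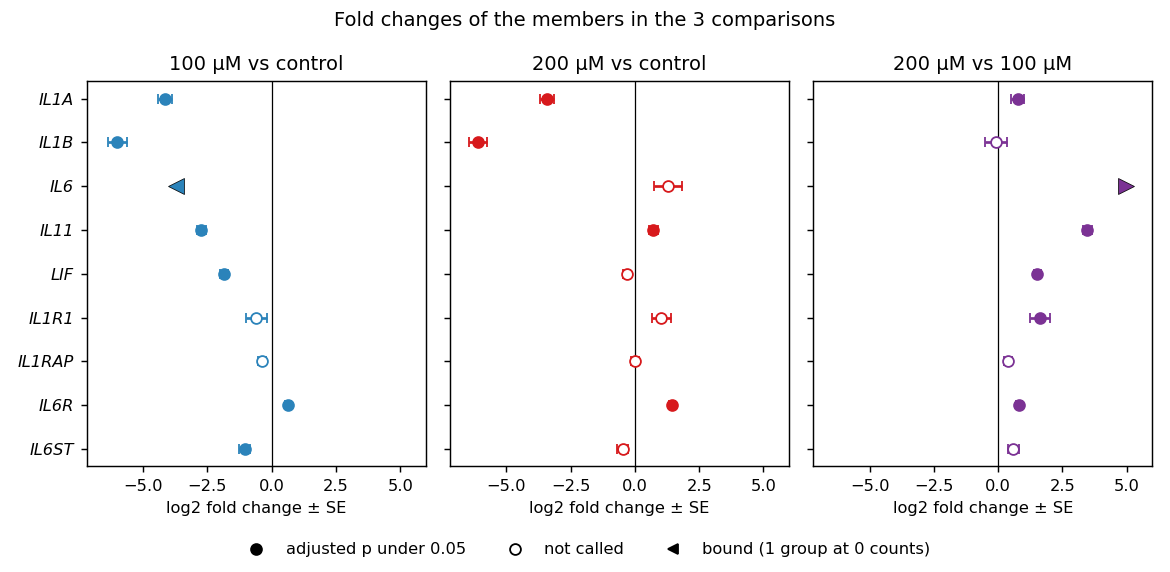
Log2 fold change ± SE of 9 members in the 3 comparisons, from edgeR, with filled points for an adjusted p under 0.05, open points for no call, and triangles for the bound of *IL6* where the 100 µM group had 0 counts. *IL1B* sits near -6 on the log2 scale at both doses, while *IL11* sits at -2.74 at 100 µM and at 0.72 at 200 µM.

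To set the members beside each other, levels were divided by the length of the longest annotated transcript, as CPM per kilobase. In control the order was *IL6ST* (62.1 ± 3.80 CPM per kilobase, SD, n = 3), *IL1A* (39.0 ± 3.90), *LIF* (20.9 ± 1.13), *IL1B* (20.5 ± 0.443), *IL11* (16.9 ± 1.18), *IL1RAP* (9.54 ± 1.41), *IL6R* (2.29 ± 0.119), *IL6* (0.276 ± 0.0835) and *IL1R1* (0.181 ± 0.0714). Of these neighbours, *LIF* and *IL1B*, and *IL6* and *IL1R1*, did not differ beyond their spread. With the merged length of all annotated exons in place of the longest transcript, an alternative added after the data were seen, *IL1B* came to 10.8 and stood below *IL11* at 14.4. At 100 µM the order was *IL6ST* (29.9 ± 3.33), *IL1RAP* (7.37 ± 0.778), *LIF* (5.80 ± 0.0933), *IL6R* (3.54 ± 0.245), *IL11* (2.51 ± 0.251), *IL1A* (2.17 ± 0.301), *IL1B* (0.318 ± 0.225) and *IL1R1* (0.119 ± 0.0222), with *IL6* at 0. There *IL11* and *IL1A*, and *IL1B* and *IL1R1*, were within their spread of each other. At 200 µM it was *IL6ST* (44.9 ± 15.6), *IL11* (27.8 ± 6.29), *LIF* (16.7 ± 3.44), *IL1RAP* (9.56 ± 1.69), *IL6R* (6.26 ± 0.762), *IL1A* (3.68 ± 1.55), *IL6* (0.690 ± 0.463), *IL1R1* (0.371 ± 0.136) and *IL1B* (0.298 ± 0.0687), and *IL6ST* and *IL11*, as well as the last 3, were within their spread of each other. In the second library at 200 µM *IL11* (30.3) stood above *IL6ST* (30.0). With merged exons *LIF* (5.80) stood above *IL1RAP* (3.45) and *IL1A* (2.17) above *IL11* (2.15) at 100 µM, and *IL6R* (5.73) above *IL1RAP* (4.48) at 200 µM.

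The 5 ligands together summed to between 93.6 and 100 CPM per kilobase in control, between 10.2 and 11.3 at 100 µM, and between 40.3 and 54.5 at 200 µM. The interleukin-1 ligands made up 60.3%, 63.6% and 59.0% of this ligand pool in control, 21.2%, 23.9% and 23.9% at 100 µM, and 6.41%, 5.08% and 14.3% at 200 µM. *IL11* made up 18.4%, 16.3% and 17.1% in control, 21.8%, 23.7% and 24.2% at 100 µM, and 59.4%, 57.7% and 51.1% at 200 µM. *IL1A* was thus the leading ligand in each control library, *LIF* in each library at 100 µM and *IL11* in each library at 200 µM. On the receptor side, the level of *IL6ST* per kilobase was 25.5, 28.9 and 27.1 times that of *IL6R* in control, 7.90, 8.07 and 9.37 times at 100 µM, and 6.57, 4.44 and 11.4 times at 200 µM.

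**Figure D3:**
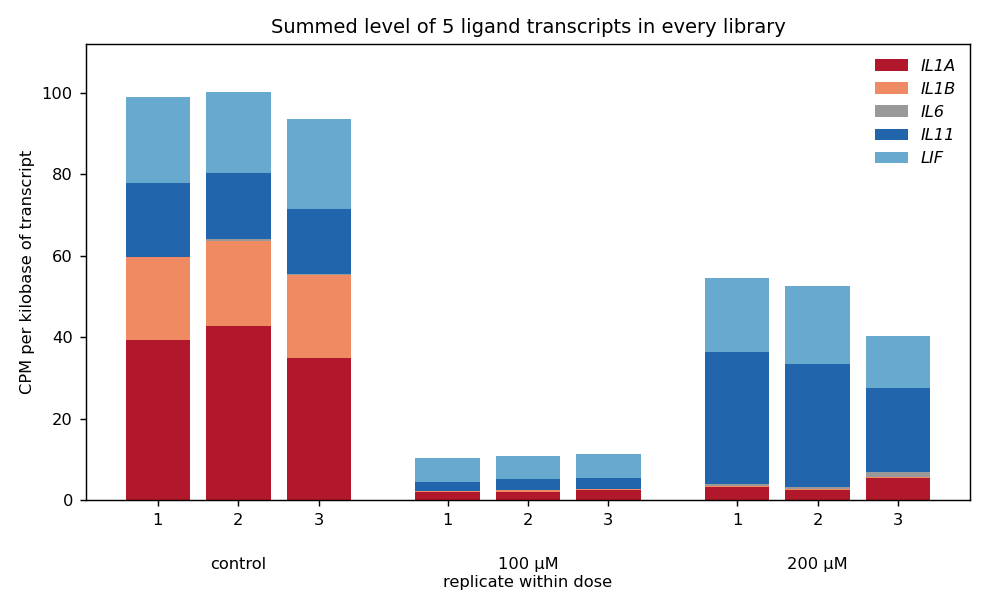
Stacked level of the 5 ligand transcripts in each of the 9 libraries, in CPM per kilobase of the longest annotated transcript, with libraries grouped by dose on the x axis. Stack heights span 93.6 to 100 in control, then 10.2 to 11.3 at 100 µM, then 40.3 to 54.5 at 200 µM, and *IL11* and *LIF* fill most of each stack at 200 µM.

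A separate table of the authors lists 100 features with a value for each library, read here as FPKM from their relation to transcript length, and it holds *IL1A*, *IL1B* and *LIF*. In the authors' deposited table *IL1A* averaged 2.16 FPKM at 100 µM and 3.36 FPKM at 200 µM, 17.2-fold and 11.1-fold below the 37.1 FPKM of control. *IL1B* averaged 0.334 and 0.279 FPKM at 100 µM and 200 µM in the authors' deposited table, 60.7-fold and 72.5-fold below the 20.3 FPKM of control. *LIF* averaged 5.71 and 15.3 FPKM at 100 µM and 200 µM in the authors' deposited table, 3.44-fold and 1.28-fold below the 19.6 FPKM of control. These values derive from the same reads and are not an independent measurement.

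The genes with the pattern most like that of 3 ligands were found by Pearson correlation of log2 CPM over the 9 libraries, among 13967 genes. For *IL1B* they were *STC1* (r = 0.997), *PPP2R3C* (0.995) and *IVNS1ABP* (0.991). *STC1*, which encodes the secreted glycoprotein stanniocalcin 1, averaged 39.1 CPM in control, 3.73 CPM at 100 µM and 4.34 CPM at 200 µM. *PPP2R3C* averaged 49.6, 31.3 and 31.7 CPM and *IVNS1ABP* 152.2, 119.4 and 122.5 CPM in the same order of groups. Their falls were thus far smaller than that of *IL1B*, since the correlation does not measure the size of a change. For *IL6* they were *NIPAL2* (0.992), *RAB2B* (0.991) and *NT5E* (0.990), and *NT5E*, which encodes the adenosine-producing ecto-enzyme CD73, averaged 336, 116 and 498 CPM in the same order of groups. For *LIF* they were *ISG20* (0.997), *BAG1* (0.996) and *DACT1* (0.996), and *ISG20*, which encodes an interferon-induced exonuclease, averaged 83.6, 29.1 and 71.6 CPM. The 9 points fall into 3 dose groups, so these coefficients describe the order of the groups and carry no test.

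Further genes of the pathways were taken from lists that were chosen with earlier results of these data known. Their counts are to be read against the 37.1% of all genes called at 100 µM, the 37.3% at 200 µM and the 44.4% between the doses, and their medians against the all-gene medians of -0.01, 0.00 and -0.01. Leaving out the third library at 200 µM ended the call of *IL18BP* and of no other pathway gene named below, and moved none of their fold changes by more than 1.5 times. Of 15 other interleukin-1 family ligands and receptors, 3 passed the filter, and *IL37*, an anti-inflammatory member, fell at both doses. It averaged 2.33 ± 0.418 CPM in control, 0.0973 ± 0.0973 CPM at 100 µM and 0.454 ± 0.151 CPM at 200 µM (SD, n = 3), a log2 fold change against control of -4.53 ± 0.60 (edgeR adjusted p = 5.5e-04) at 100 µM and -2.35 ± 0.50 (0.0057) at 200 µM. At 100 µM it rests on 0, 6 and 3 reads, and without the second library at 100 µM the fold change was -5.45. Its control libraries, where it was highest, helped it pass the filter on low counts. Its p-values against control are therefore no independent support for a fall. *IL33* and the decoy receptor gene *IL1R2* had 4 and 2 counts over all 9 libraries, and *IL18* had 69. The binding protein gene *IL18BP* was 1.45-fold lower at 200 µM than at 100 µM (-0.54 ± 0.19, adjusted p = 0.046), a call lost in 12 of 18 alternatives, and 15.6% of its exon bases overlap *NUMA1*.

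Of 17 tested genes of interleukin-1 receptor signalling, 2 were higher and 5 lower at 100 µM than in control, 4 were higher and 1 lower at 200 µM than in control, and 6 were higher and 0 lower at 200 µM than at 100 µM. Their median log2 fold changes were -0.16, 0.23 and 0.17. With 7, 5 and 6 of 17 called, the shares lay near or below those of all genes (37.1%, 37.3% and 44.4%). These counts depended on single libraries. Without the third library at 200 µM they were 5 and 5, 8 and 2, and 8 and 5. Without any 1 of the control or 100 µM libraries, 0 or 1 were higher and 3 lower at 100 µM, and without any 1 control library 1 was higher at 200 µM. *IRAK2*, a kinase that sustains the NF-kB response, averaged 6.93 ± 0.357 CPM in control, 1.66 ± 0.361 CPM at 100 µM and 11.0 ± 2.80 CPM at 200 µM. It fell by 2.06 ± 0.23 on the log2 scale at 100 µM (edgeR adjusted p = 1.9e-04) and was 6.64-fold higher at 200 µM than at 100 µM. *PELI1*, a ubiquitin ligase that acts on IRAK proteins, had the same shape, at 34.2 ± 3.69, 18.2 ± 2.33 and 64.4 ± 7.64 CPM in control, at 100 µM and at 200 µM, and was 1.88-fold lower at 100 µM (adjusted p = 0.0010) and 1.88-fold higher at 200 µM (adjusted p = 8.0e-04) than in control. *CHUK*, which encodes the kinase IKK alpha, fell by 0.64 ± 0.07 at 100 µM (adjusted p = 2.5e-04), a call lost after removal of the GC trend of each library (-0.16, adjusted p = 0.34). The kinase gene *IRAK1* (0.69 ± 0.20, adjusted p = 0.025) and the adaptor gene *TAB1* (0.51 ± 0.17, adjusted p = 0.042) were called higher at 100 µM, and were lost in 6 and 8 of 18 alternatives. At 200 µM the adaptor gene *MYD88* was 1.26-fold higher than in control (adjusted p = 0.022), a call lost in 5 of 18 alternatives. *UBE2N*, a ubiquitin-conjugating enzyme gene, was 1.52-fold lower at 200 µM than in control (adjusted p = 0.0052), and 39.5% of its exon bases overlap *NUDT4* on the other strand.

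Among 15 tested genes of interleukin-1 processing and release, 2 were higher and 7 lower at 100 µM than in control, 2 higher and 3 lower at 200 µM than in control, and 5 higher and 1 lower at 200 µM than at 100 µM, with medians of -0.31, 0.01 and 0.36. All genes were called at 37.1%, 37.3% and 44.4%, so only the 9 of 15 called at 100 µM stood above that share. Leaving out 1 library at a time gave 4 to 6 lower at 100 µM, with 4 without any 1 control library, and 1 to 3 higher and 2 to 5 lower at 200 µM, with 5 lower without the third library at 200 µM. *AIM2*, a sensor of cytosolic DNA that forms an inflammasome, averaged 27.1 ± 1.66 CPM in control, 7.67 ± 0.168 CPM at 100 µM and 22.6 ± 5.23 CPM at 200 µM, and fell by 1.82 ± 0.16 on the log2 scale at 100 µM (edgeR adjusted p = 5.9e-05). *NLRP1*, the sensor of another inflammasome, was higher at both doses, by 0.69 ± 0.15 at 100 µM (adjusted p = 0.0067) and 1.05 ± 0.15 at 200 µM (adjusted p = 7.0e-04). *CAPN2*, a calpain, was 1.39-fold lower at 100 µM than in control (adjusted p = 4.8e-04), and *CAPN1*, of the same protease family, was 1.48-fold higher (adjusted p = 0.010). *S100A13*, which takes part in the release of interleukin-1 alpha, was 2.14-fold lower at 100 µM (adjusted p = 6.9e-05), with 10.6% and 24.2% of its exon bases under other annotated genes. *CASP8*, an apoptotic caspase that can also cleave interleukin-1 beta, was 1.40-fold lower at 200 µM than in control (adjusted p = 0.0056). *GSDMD*, whose cleaved product forms the pores through which interleukin-1 beta leaves, was 1.82-fold lower at 200 µM than in control (adjusted p = 0.021), a call lost in 2 of 18 alternatives, while the related gene *GSDME* was 1.25-fold higher (adjusted p = 0.033), a call lost in 7. *PYCARD*, the inflammasome adaptor gene, had 24 counts over all 9 libraries and was not tested.

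Of 11 tested genes among the other interleukin-6 family ligands and receptors, 2 were higher and 3 lower at 100 µM than in control, 4 higher and 2 lower at 200 µM than in control, and 4 higher and 3 lower at 200 µM than at 100 µM, with medians of -0.11, 0.01 and 0.36. Against 37.1%, 37.3% and 44.4% of all genes called, these were 5, 6 and 7 of 11. The number higher at 100 µM was 1 to 4 when 1 library was left out, with 4 without the third library at 200 µM and 1 without control library 1 or 3 or library 2 or 3 at 100 µM. At 200 µM, 2 were higher without the first control library. *CLCF1*, a ligand that acts through the CNTF receptor and gp130, went the way of *IL11*, at 8.93 ± 0.408 CPM in control, 3.59 ± 0.421 CPM at 100 µM and 24.7 ± 1.64 CPM at 200 µM. Against control it fell by 1.32 ± 0.12 on the log2 scale at 100 µM (edgeR adjusted p = 7.1e-05) and rose by 1.46 ± 0.12 at 200 µM (adjusted p = 2.8e-05), and between the doses it was 6.87-fold higher at 200 µM (adjusted p = 7.6e-07). *EBI3*, a subunit of interleukin-27, fell at both doses, by 1.92 ± 0.21 and 1.47 ± 0.21 (adjusted p = 1.9e-04 and 6.5e-04). *IL31RA*, a receptor related to gp130, rose by 0.91 ± 0.09 at 200 µM (adjusted p = 9.2e-05).

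Of the partner receptors of gp130, *LIFR*, whose product binds LIF together with gp130, averaged 68.5 ± 4.26 CPM in control, 100 ± 12.4 CPM at 100 µM and 44.7 ± 8.77 CPM at 200 µM. It was 1.53-fold lower at 200 µM than in control (-0.62 ± 0.15, edgeR adjusted p = 0.012), and its rise at 100 µM (0.55 ± 0.15, adjusted p = 0.019) was lost in 4 of 18 alternatives. *OSMR*, the oncostatin M partner of gp130, rose by 0.52 ± 0.13 at 100 µM (adjusted p = 0.014). *IL11RA*, the interleukin-11 receptor gene, averaged 4.29 ± 0.222 CPM in control, 6.68 ± 1.77 CPM at 100 µM and 2.98 ± 1.07 CPM at 200 µM, and was 2.24-fold lower at 200 µM than at 100 µM (adjusted p = 0.010).

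Among 22 tested genes of gp130 signalling and feedback, 5 were higher and 4 lower at 100 µM than in control, 10 higher and 1 lower at 200 µM than in control, and 9 higher and 2 lower at 200 µM than at 100 µM, with medians of 0.06, 0.30 and 0.19. Called genes were 9, 11 and 11 of 22, where 37.1%, 37.3% and 44.4% of all genes were called. Without the third library at 200 µM they were 7 and 6, 13 and 2, and 10 and 4. *SOCS1*, a feedback inhibitor of JAK kinases, averaged 0.206 ± 0.0703 CPM in control, 0.388 ± 0.0831 CPM at 100 µM and 1.34 ± 0.441 CPM at 200 µM. It rose by 2.68 ± 0.38 on the log2 scale at 200 µM (edgeR adjusted p = 6.8e-04). The 200 µM libraries, where *SOCS1* was highest, helped it pass the filter on low counts. Its p-value is therefore no independent support for a rise. *BCL6*, a transcriptional repressor, rose by 1.35 ± 0.15 at 200 µM (adjusted p = 1.9e-04). *SOCS2*, another member of the suppressor family, was lower at both doses, with log2 fold changes of -0.68 ± 0.09 at 100 µM (adjusted p = 6.2e-04) and -0.79 ± 0.09 at 200 µM (adjusted p = 2.4e-04). *BCL3*, an IkB-like nuclear protein gene, rose by 1.22 ± 0.14 at 100 µM (adjusted p = 2.4e-04). *CEBPD*, an acute-phase transcription factor gene, fell by 0.68 ± 0.10 at 100 µM (adjusted p = 0.0011). *CEBPB*, of the same factor family, was 2.17-fold higher at 200 µM than at 100 µM (adjusted p = 2.3e-04), with 11.8% of its exon bases under an antisense transcript. *STAT3*, the main transcription factor of the pathway, was 1.38-fold lower at 200 µM than at 100 µM (-0.46 ± 0.06, adjusted p = 4.7e-04), at 93.9 ± 2.08 against 129 ± 3.12 CPM. *JUNB*, an AP-1 subunit, fell by 0.88 ± 0.11 at 100 µM (adjusted p = 3.4e-04) and was 3.06-fold higher at 200 µM than at 100 µM, with 14.2% of its exon bases shared with *HOOK2*.

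The NF-kB targets downstream of interleukin-1 were the list with the most calls at 100 µM, where 21 of 21 tested members were lower than in control (median log2 fold change -2.50). At 200 µM, 13 were lower and 5 higher than in control (median -0.37), and 18 were higher and 1 lower at 200 µM than at 100 µM (median 1.61). Without the third library at 200 µM they were 21 lower, 13 lower and 5 higher, and 17 higher and 1 lower. Of all genes tested, 37.1% were called at 100 µM (18.2% lower), 37.3% at 200 µM and 44.4% between the doses. *BIRC3*, an inhibitor of apoptosis, averaged 136 ± 11.0 CPM in control, 3.02 ± 0.243 CPM at 100 µM and 89.9 ± 22.8 CPM at 200 µM, and fell by 5.49 ± 0.21 on the log2 scale at 100 µM (edgeR adjusted p = 7.7e-07). *NFKBIA*, which encodes the inhibitor IkB alpha, was 4.95-fold lower at 100 µM than in control (adjusted p = 8.3e-07). *TNFAIP3*, which encodes the NF-kB inhibitor A20, averaged 14.6 ± 0.438 CPM in control, 1.62 ± 0.185 CPM at 100 µM and 15.8 ± 1.28 CPM at 200 µM, and was 8.99-fold lower at 100 µM than in control (edgeR adjusted p = 1.1e-06) and 9.75-fold higher at 200 µM than at 100 µM (adjusted p = 4.6e-07). *PTGS2*, which encodes the prostaglandin enzyme COX-2, averaged 7.52 ± 0.604, 0.722 ± 0.0848 and 14.7 ± 2.63 CPM in control, at 100 µM and at 200 µM, and was 1.95-fold higher at 200 µM than in control (adjusted p = 0.0014). *MMP3*, a matrix protease, was 3.33-fold higher at 200 µM than in control (adjusted p = 5.0e-04). The chemokine genes named by the rule were low at 200 µM: *CXCL8* was 27.4-fold lower than in control (-4.78 ± 0.22, adjusted p = 1.9e-06) and *CXCL1* 14.3-fold lower (-3.84 ± 0.16, adjusted p = 1.1e-06). Reads of *CXCL1* and of *CXCL3* (16.7-fold lower at 200 µM) may be split between near-identical paralogs, which leaves both values uncertain. The list was picked with these results in view and is no independent evidence on the cytokines.

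**Figure D4:**
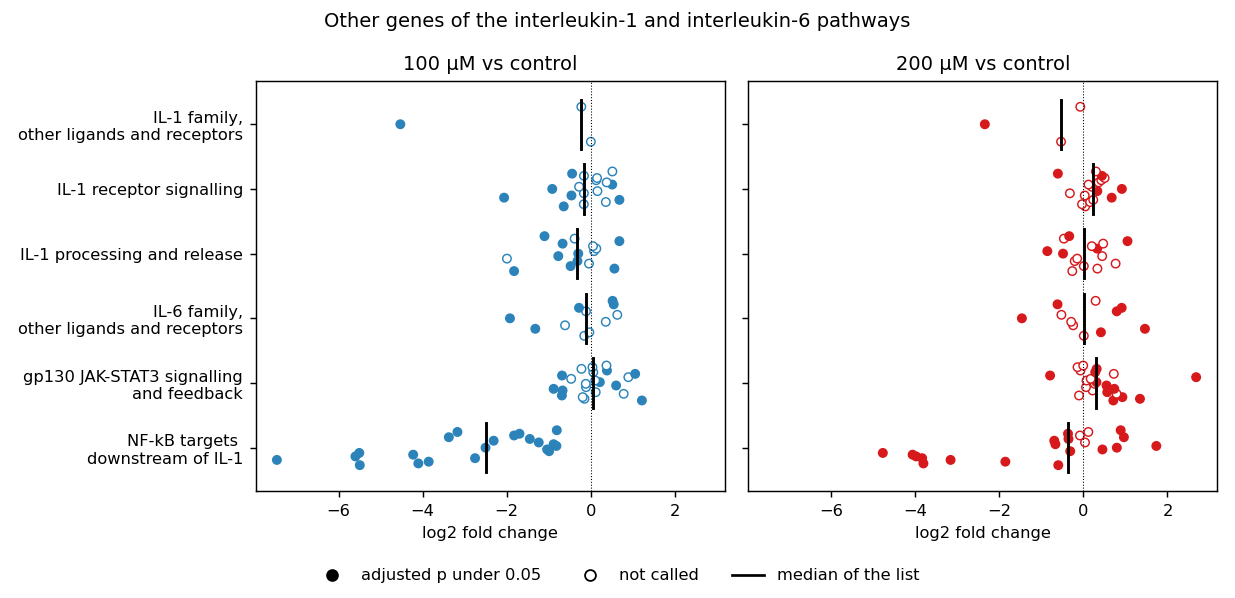
Log2 fold change of each tested gene of 6 pathway lists at 100 µM (left) and at 200 µM (right) against control, with 1 point per gene, filled for an adjusted p under 0.05 in edgeR, and a bar at the median of the list. All 21 NF-kB targets lie left of 0 at 100 µM with a median of -2.50, and at 200 µM they spread to both sides with a median of -0.37.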

How the data were processed

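Polyadenylated RNA of 9 A375 libraries was sequenced after TRIzol extraction and NEBNext Ultra library preparation, per the labels' protocols. The authors deposited a table of raw read counts per gene for 22605 features, of which 20463 carry Ensembl identifiers and 2142 are assembled transcripts (1.25% to 1.41% of a library's counts), which were left out. FastQC, HISAT2, featureCounts, DESeq2 and GRCh38 are named in the submitters' processing notes, while the sources used here state neither annotation release nor strand setting. The authors also deposited a table of 100 features in a unit inferred to be FPKM, since the length implied by counts and values was 1.03 times the longest annotated transcript (quartiles 0.924 and 1.08, 98 features).

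Counts were tested in R 4.3.3 with edgeR 4.0.16 (filterByExpr, TMM, robust quasi-likelihood fit of all 9 libraries on the group, 6 residual degrees of freedom) over 13968 genes, with Benjamini-Hochberg adjustment within each comparison, a threshold of 0.05 and no minimum fold. The test was checked on simulated counts. The SE was taken as |log2 fold change| over the root of the F statistic, and 95% intervals use the moderated degrees of freedom. CPM, CPM per kilobase, SD (n = 3) and floors of 3 counts were computed here. The floors cover counting error only, while the 95% intervals include the spread between the libraries of a group. Positions, lengths, GC content and overlaps came from GENCODE 29. An exact permutation test of 3 against 3 libraries was not used, because it cannot reach the threshold. The members and lists were chosen with earlier results of these data known. The text names all 10 members, and from each list and comparison the 3 called genes with the smallest adjusted p and up to 2 called genes in the less common direction, with further genes named for their counts. Alternatives were RLE and total-count scaling, DESeq2 1.42.0, no filter, a filter of 1 CPM in 3 libraries, 2 groups alone, a replicate block, assembled transcripts kept, removal of each library's GC trend, and leaving out each library.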

Additional observations from a re-analysis of the deposited data

How the results depend on the processing

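Every fall and rise of a member called at 100 µM kept its direction and call under all alternatives that gave a value, and likewise the calls at 200 µM against control. Over the members, 158 of 160 alternative values at 100 µM, 148 of 161 at 200 µM and 143 of 161 between the doses kept direction and side of the threshold. Of the members' calls, that of IL1A between the doses was lost under some alternatives and kept in 7 of 18. Values that changed sign were not called. For IL1RAP at 200 µM (0.002), the log2 fold change was -0.024 with total-count scaling, -0.002 with no filter and -0.001 with the replicate block, and -0.105 to 0.130 when 1 library was left out. For IL1B between the doses it was -0.397 to 0.632 when 1 library was left out, highest without the second library at 100 µM. The number of genes called at 100 µM was 5181 and became 8417 when the 2 groups were fitted alone, and 3469 to 7943 when 1 library was left out, with 7943 without the third library at 200 µM. At 200 µM, members called lower were 4 with the GC trend removed. The cause was not tested. A filter of 1 CPM in 3 libraries removes IL6, so it gave no value there. The fit of control and 100 µM alone also gave no value for IL6.

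The labels do not say that replicate numbers pair the libraries, correlations of same-numbered deviations were -0.163 to 0.0273, and 0 of 9 libraries correlated best with their own number. With the replicate block, 4264 genes were called at 100 µM, 4369 at 200 µM and 5404 between the doses, and of the members' calls IL1A between the doses was lost (0.72, adjusted p = 0.056). Under the scalings tried, the median log2 fold change of all genes lay between -0.094 and 0.052, both with total counts. Depth limits IL1RN, IL6, IL1R1 and the treated levels of IL1B, which rest on 0 to 67 reads per library.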
